A study of Mus musculus with 21 samples.

Results

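RNA of 42 interferon-stimulated genes was followed in whole mouse uterus at 3 ages. The genes were chosen by symbol, from a list of transcripts that interferons are known to induce, and all 42 were among the 12791 genes of the deposited tables. The animals were of the inbred strain C57BL/6J, wild type, and part of each uterine horn was taken. The groups were 7 libraries of 5-week-old mice, 7 libraries of 8-week-old mice and 6 libraries of aged mice, of which 2 came from mice of 60 to 75 weeks and 4 from mice of 79 weeks. Every mouse in every group had been injected with PMSG, a placental gonadotropin that drives ovarian follicles to grow, at 5 or 7.5 units 48 h before dissection. The labels do not tie the doses to animals, and all groups described here had the hormone.

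Type I interferons bind a cell-surface receptor made of IFNAR1 and IFNAR2, whose kinases JAK1 and TYK2 phosphorylate transcription factors that include STAT2. With IRF9 STAT2 is part of a complex that binds the interferon-stimulated response element (ISRE) in promoters, while interferon gamma acts mainly through another element, GAS. The genes switched on encode sensors of foreign RNA and DNA, enzymes that block viral replication, the ubiquitin-like modifier ISG15 and GTPases that attack the vacuoles of intracellular pathogens. The uterus has a type I interferon of its own, interferon epsilon (Ifne), which its epithelium makes without infection and which varies with ovarian hormones in mice.

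The promoters carried the element more often than those of other genes. RefSeq promoter sequences of GRCm38.p6, running from 250 bases before to 50 bases after the start of a gene, matched 31 of the 42 genes. The ISRE core, GAAA and again GAAA after any 2 bases, searched on both strands, was in 17 of these 31, or 54.8%, against 3.75% of the 10017 listed genes with a promoter entry and 3.44% of all 32851 promoters. The longer form, the core followed by CT, was in 9 of 31, or 29.0%, against 0.419% of the listed genes. The GAS letters TTCNNNGAA, which read the same on both strands, were in 10 of 31, or 32.3%, against 8.2% of the listed genes. The 180 bases before the start are shown for 6 genes with the core, chosen to stand for the effector and modifier genes (4) and the GTPases (2), which are described separately below. Capitals mark the core, which reads as TTTC and TTTC, 2 bases apart, where it lies on the other strand. Isg15 (chr4:156200819-156200998, minus strand), Ifit1 (chr19:34640709-34640888, plus strand) and Ifit3 (chr19:34583349-34583528, plus strand) come first, then Rsad2 (chr12:26456453-26456632, minus strand), Gbp2 (chr3:142620483-142620662, plus strand) and Irgm1 (chr11:48871421-48871600, minus strand).
Isg15: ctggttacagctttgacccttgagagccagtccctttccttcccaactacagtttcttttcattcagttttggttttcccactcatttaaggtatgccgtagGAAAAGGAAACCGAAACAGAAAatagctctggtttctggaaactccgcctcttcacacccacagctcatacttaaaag
Ifit1: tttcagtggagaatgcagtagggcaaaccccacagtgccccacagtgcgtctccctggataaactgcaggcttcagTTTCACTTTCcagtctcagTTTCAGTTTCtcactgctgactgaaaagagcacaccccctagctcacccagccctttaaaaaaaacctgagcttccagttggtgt
Ifit3: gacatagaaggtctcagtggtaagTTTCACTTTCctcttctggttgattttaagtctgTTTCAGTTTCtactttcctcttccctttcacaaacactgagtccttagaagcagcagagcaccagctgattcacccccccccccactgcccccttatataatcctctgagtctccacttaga
Rsad2: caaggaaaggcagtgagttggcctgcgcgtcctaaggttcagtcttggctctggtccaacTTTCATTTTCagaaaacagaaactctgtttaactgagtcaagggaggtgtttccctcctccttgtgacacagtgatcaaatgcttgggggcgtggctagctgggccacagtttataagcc
Gbp2: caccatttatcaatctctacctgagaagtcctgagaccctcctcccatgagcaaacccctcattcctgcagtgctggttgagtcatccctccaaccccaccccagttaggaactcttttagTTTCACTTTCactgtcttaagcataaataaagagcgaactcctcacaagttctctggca
Irgm1: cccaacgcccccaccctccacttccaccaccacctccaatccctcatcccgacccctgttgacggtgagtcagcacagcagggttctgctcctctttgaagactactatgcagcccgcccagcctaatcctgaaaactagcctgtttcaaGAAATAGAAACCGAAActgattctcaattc
In Isg15 3 overlapping copies of the core formed 1 run, and in Irgm1 2 copies overlapped. Ifit1 and Ifit3 each had 2 separate copies, and Rsad2 and Gbp2 had 1 each.

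The libraries fell into 2 sets by replicate number. Replicates 1 and 2 of each age, with 12204573 to 14448283 reads, formed the earlier set, and replicates 3 to 7, with 19100690 to 30689439 reads, the later set. These are reads of the listed genes, inferred from the smallest step of the CPM values, and not reported depths. The first principal component, with 48.2% of the variance over all genes, parted the sets, so set was a term in every comparison. The labels name 2 sequencers and 2 RNA kits without saying which library went where, and for aged mice the sets also differ in age, so these cannot be told apart. The columns of 5w replicate 3 and 8w replicate 3 lay in files attached to samples of another age. Those of aged replicates 2 and 5 lay in files attached to aged samples of the other set, and columns were assigned by their headers. Markers of uterine epithelium (10 of 10), endometrial stroma (10 of 10) and smooth muscle (8 of 8) were listed in every library. Their levels differed between the sets, as given below. The labels do not say that the libraries of a group came from separate animals, so p-values measure the spread between these libraries, which may be technical.

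Aged uteri had less RNA of several antiviral genes than 5-week uteri, and more of a single member, Ifi27. Isg15, Mx1, Cmpk2, Eif2ak2 and Ddx58 fell and Ifi27 rose, and the other 36 members were not called (limma, Benjamini-Hochberg adjustment over all 12791 genes, adjusted p under 0.05). Over all genes 9.41% were called lower and 12.7% higher in aged than in 5-week uteri, so 5 of 42 lower is close to the share of all genes, and the count of calls does not set the members apart. Their direction was more uniform: 39 of 42 had a log2 fold change below 0, against 42.9% of all genes, with a median of -0.56 against 0.09 for all genes. Libraries that are high in a single member tend to be high in most, so these 42 values are not independent. In bulk tissue, fewer cells of a type and less RNA per cell cannot be told apart.

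Against 8-week uteri, aged uteri had more Ifi27 and less Mx1 RNA, and the other 40 members were not called. Over all genes 8.64% were called higher and 8.53% lower, which is more than these counts. Of the 42 members 27 had a log2 fold change below 0, with a median of -0.18, against 45.4% of all genes and a median of 0.05. With library weights only 10 of 42 lay below 0, the median was 0.18 against 0.02 for all genes, Mx1 was not called (-0.66, adjusted p 0.134), and Eif2ak2 was called lower in its place. That fit leaned on aged replicate 4, with a weight of 7.84 against 0.259 to 1.18 for the other aged libraries. The weight of 8w replicate 4 was 0.349. This comparison and that with 5-week uteri share the aged libraries, so they are not independent of each other. Between 8-week and 5-week uteri no member was called and, over all genes, 0 were called in either direction. No member had all of its 8-week libraries above or below all of its 5-week libraries, as 0.00782% of all genes did above and 0 did below. In that comparison 41 of 42 members had a value below 0, with a median of -0.37 against 0.03 for all genes and 40.1% of all genes below 0. An unadjusted p under 0.05 was reached by 1 member, Cmpk2, at -0.63 ± 0.27 (log2, SE; limma p 0.0281), and by 1.09% of all genes.

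**Figure D1:**
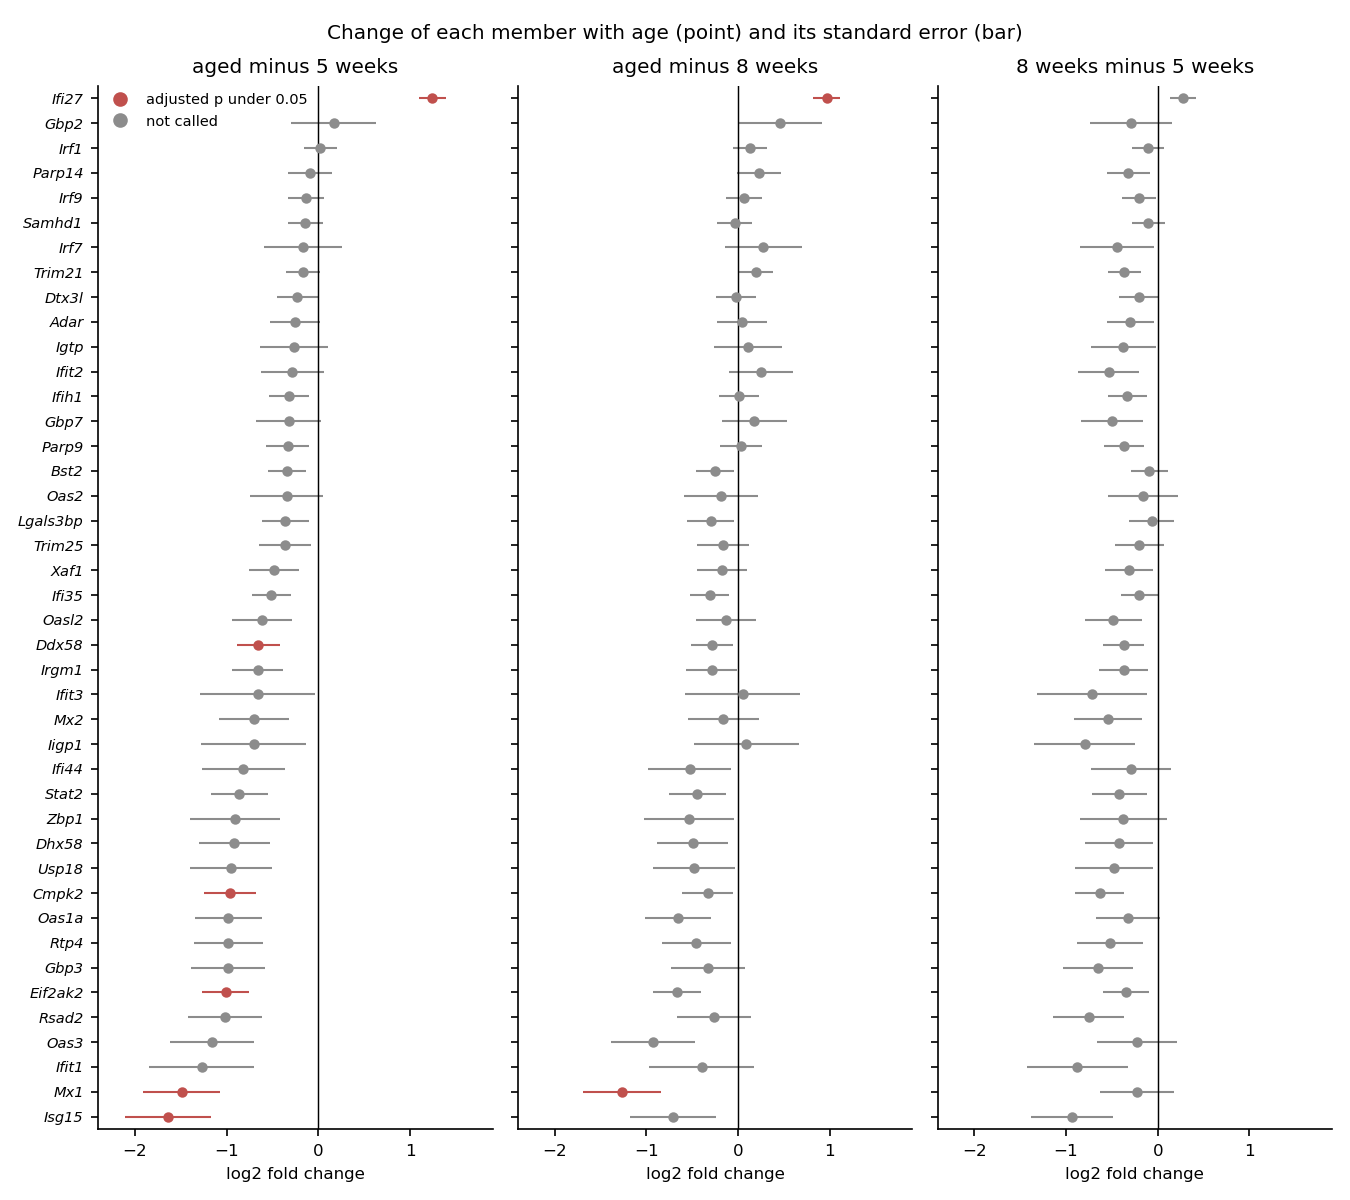
Log2 fold change of each of the 42 members (x axis, points, with the standard error as bars) in aged minus 5-week, aged minus 8-week and 8-week minus 5-week uteri, sorted by the first. Most points lie left of 0 in the first and the third panel, and the called members, in red, are 6 in the first panel, Ifi27 and Mx1 in the second and none in the third.

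Single libraries moved these numbers. The mean log2(CPM + 1) over the 42 members, where CPM is a gene's reads per 1000000 reads of the listed genes, had a lowest, median and highest value of 5.13, 6.25 and 6.43 at 5 weeks, 5.06, 5.36 and 6.91 at 8 weeks, and 4.86, 5.43 and 6.07 in aged uteri. The highest library of all was 8w replicate 4, and the ranges of the 3 ages overlapped. Without 8w replicate 4, which enters the comparison of aged with 5-week uteri only through the common spread and the set term, 13 members were called lower in aged than in 5-week uteri, beside 10.4% of all genes. These were the 5 already named and Ifit1, Oas1a, Oas3, Stat2, Rsad2, Dhx58, Irgm1 and Rtp4. Without it, 0 members were lower in aged than in 8-week uteri, beside 10.8% of all genes. In that fit 19 of 42 lay below 0, and the median was 0.07 against 0.02 for all genes. The lowest 5-week library, 5w replicate 3, was assigned to its age by its header, against the aged sample it was attached to. Without 5w replicate 3, 10 members were lower in aged than in 5-week uteri, beside 9.87% of all genes, and without 5w replicate 5 there were 9, beside 10.3%. Of the 5 called with all libraries, the later set alone called none, a fit without the set term called Isg15 and Mx1, and columns attached by file gave Mx1 and Eif2ak2, with Stat2 and Dhx58 beside them. Over all genes these fits called 2.21%, 4.42% and 5.68% lower, in the same order.

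**Figure D2:**
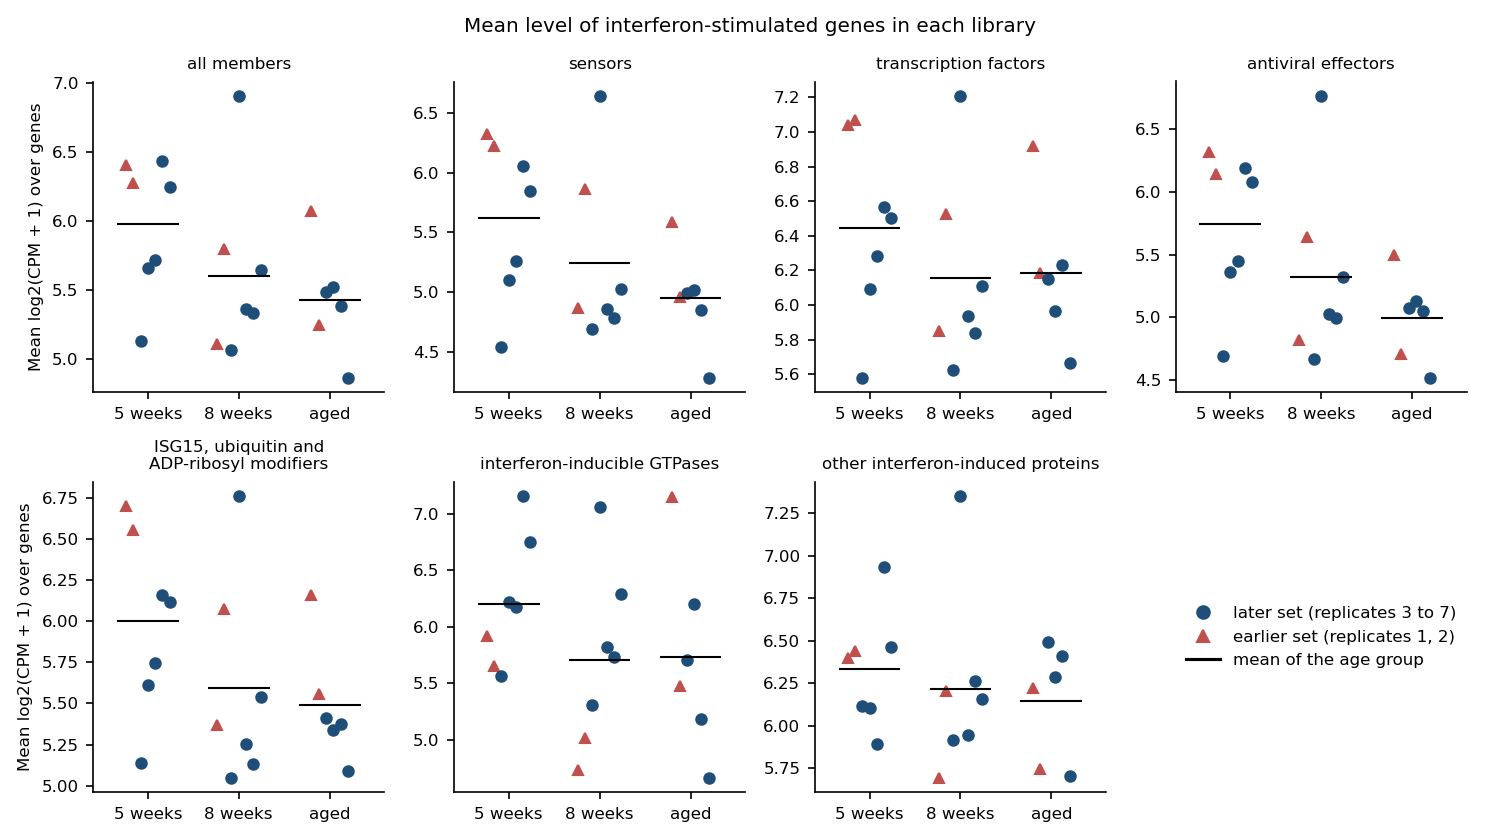
Mean log2(CPM + 1) over all 42 members and over each of 6 roles (y axis) in every library at 5 weeks, 8 weeks and in aged mice (x axis). Triangles are the earlier set, circles the later set and lines the mean of an age; 8w replicate 4, at 6.91 for all members, is the highest circle of its age in every panel, and no panel parts the ages without overlap.

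**Figure D3:**
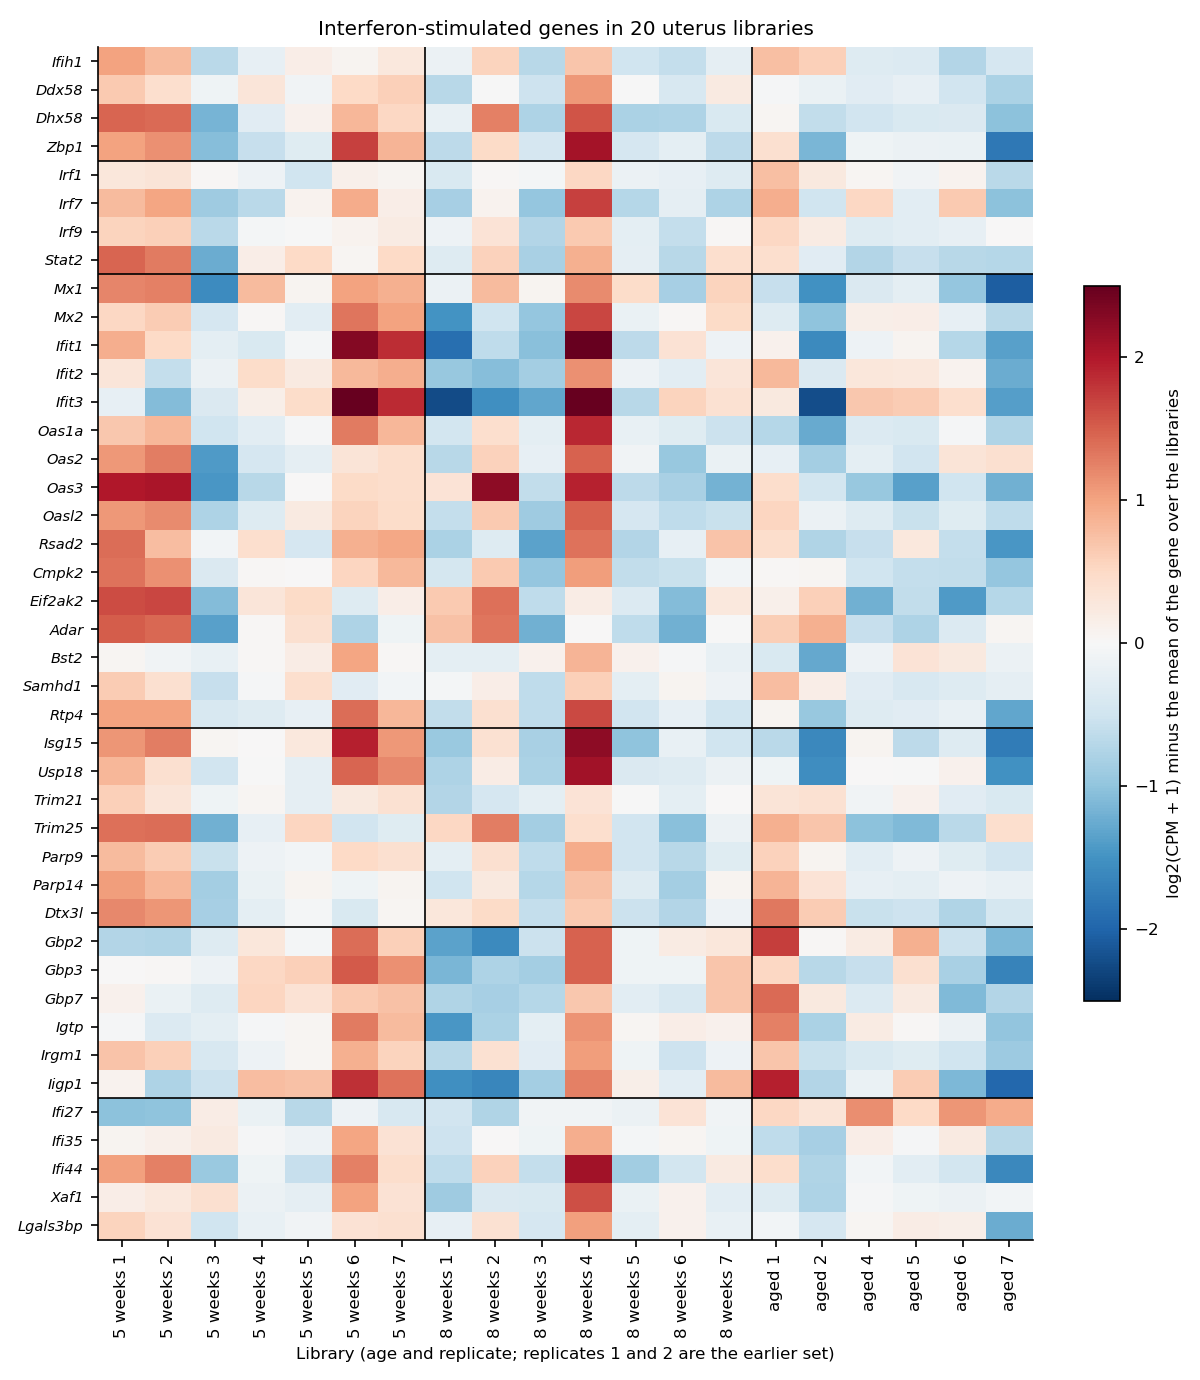
Log2(CPM + 1) of each member minus its mean over the 20 libraries (colour, drawn at the end colour beyond 2.5 in either direction), with members as rows grouped by role and libraries as columns grouped by age. The columns of 5w replicates 1, 2, 6 and 7 and of 8w replicate 4 are red over most rows, and the row of Ifi27 is red in the aged columns. Among the aged columns, replicate 1, with a mean of 6.07 over the members, is also red in the rows of the GTPases and of many other members.

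Isg15 (ENSMUSG00000035692) encodes the ubiquitin-like protein that enzymes induced by interferon attach to many targets, and it had the most negative fold change of the members in aged against 5-week uteri. It lies at chr4:156199424-156200818 on the minus strand (GRCm38). Its lowest, median and highest levels were 43.0, 91.0 and 167 CPM at 5 weeks, 20.7, 29.7 and 205 CPM at 8 weeks, and 11.9, 26.3 and 44.9 CPM in aged uteri. In 5 of 6 aged libraries Isg15 was below every 5-week library, while only 2 were below every 8-week library. The log2 fold change was -1.64 ± 0.47 in aged against 5-week uteri (SE, limma adjusted p 0.0171) and -0.71 ± 0.47 in aged against 8-week uteri (adjusted p 0.310). Against 5 weeks it was called in each of 20 fits that left out a library. Within the sets it was -1.33 in the later and -2.34 in the earlier set. Between 8-week and 5-week uteri Isg15 had a log2 fold change of -0.93 ± 0.45, the most negative of the members, and was not called (adjusted p 0.99992).

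The other genes around ISG15 and protein modification were not called. Usp18, the protease that removes ISG15 and dampens the receptor, had a lowest, median and highest level of 20.3, 38.5 and 80.8 CPM at 5 weeks, 16.1, 22.9 and 127 CPM at 8 weeks, and 9.24, 27.6 and 31.2 CPM in aged uteri. All 6 aged libraries lay below the 5-week median, but 4 of them lay within the 5-week range. Its fold change against 5 weeks was -0.95 ± 0.44 on the log2 scale (SE, limma adjusted p 0.127). Trim25, a ubiquitin ligase that activates the sensor RIG-I and belongs to the 5 members with the highest mean CPM, ran through 43.3, 86.6 and 266 CPM at 5 weeks, 48.6, 90.7 and 246 CPM at 8 weeks, and 46.0, 99.3 and 186 CPM in aged uteri. The 3 ranges nearly coincided. Over the 7 modifier genes, which also hold Trim21, Parp9, Parp14 and Dtx3l, all 7 had a value below 0 against 5 weeks, with a median of -0.33 and 1 call, and 4 of 7 against 8 weeks, with a median of -0.02 and no call.

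Mx1 (ENSMUSG00000000386), a dynamin-like GTPase that blocks influenza viruses, fell against both younger ages. C57BL/6J mice are known to carry a defective Mx1 allele, so its RNA level says nothing of Mx1 protein function. Mx1 lies at chr16:97447035-97462907 on the minus strand, and its lowest, median and highest levels were 4.61, 29.9 and 39.1 CPM at 5 weeks, 8.37, 22.0 and 37.1 CPM at 8 weeks, and 3.03, 8.86 and 13.2 CPM in aged uteri. All 6 aged libraries lay below the median of either younger age. Only 1 lay below every 5-week library, because 5w replicate 3 was at 4.61 CPM, and 3 lay below every 8-week library. The log2 fold change was -1.49 ± 0.42 against 5 weeks (SE, limma adjusted p 0.0168) and -1.26 ± 0.42 against 8 weeks (adjusted p 0.0450). The call against 5 weeks held in each of 20 fits that left out a library, with an adjusted p of at most 0.0469, and the call against 8 weeks held in 7 of 20, with an adjusted p of up to 0.110. Within the later and the earlier set Mx1 had log2 fold changes of -1.14 and -2.29 against 5 weeks, and of -1.19 and -1.37 against 8 weeks.

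Cmpk2 (ENSMUSG00000020638), a mitochondrial nucleotide kinase that lies beside Rsad2 and is induced with it, fell against 5 weeks. It lies at chr12:26469204-26479837 on the plus strand, and ran through 15.1, 29.0 and 52.3 CPM at 5 weeks, 9.66, 14.4 and 41.9 CPM at 8 weeks, and 9.60, 13.3 and 20.7 CPM in aged uteri. In 4 of 6 aged libraries Cmpk2 was below every 5-week library. The log2 fold change was -0.96 ± 0.28 (SE, limma adjusted p 0.0189), called in each of 20 fits without a library, and -0.87 in the later and -1.20 in the earlier set.

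Eif2ak2 (ENSMUSG00000024079) encodes PKR, the kinase that stops translation when it binds viral RNA duplexes. It lies at chr17:78852564-78882573 on the minus strand, and ran through 22.1, 59.2 and 155 CPM at 5 weeks, 22.1, 54.6 and 125 CPM at 8 weeks, and 17.4, 29.9 and 73.3 CPM in aged uteri. Only 2 aged libraries lay below every 5-week library, with 5w replicate 3 at 22.1 CPM. The 2 aged libraries of the earlier set, at 52.3 and 73.3 CPM, also lay above the 38.0 CPM of 5w replicate 6. Its log2 fold change was -1.01 ± 0.26 against 5 weeks (SE, limma adjusted p 0.00929), called in each of 20 fits without a library, and -0.67 ± 0.26 against 8 weeks (adjusted p 0.0808). Against 5 weeks the set values were -0.89 in the later and -1.29 in the earlier set. Eif2ak2 also differed between the sets, at -1.48 in later minus earlier libraries of the same age group.

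**Figure D4:**
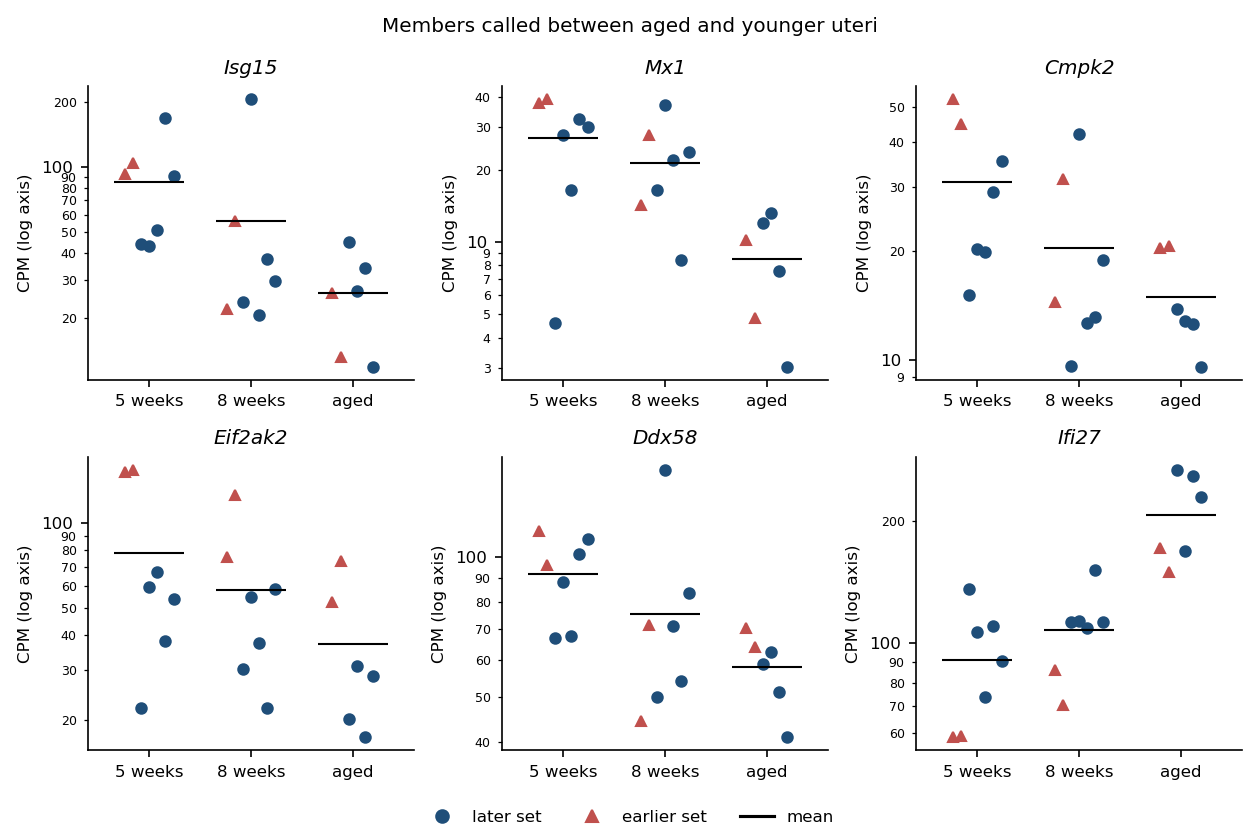
CPM (log y axis) of the 6 members called between aged and younger uteri in each library at 5 weeks, 8 weeks and in aged mice (x axis), with triangles for the earlier set, circles for the later set and lines for the mean of an age. Ifi27 in aged uteri, at 150.4 to 268 CPM, lies above the 5-week libraries, and 5 of 6 aged values of Isg15 lie below them.

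The 3 Ifit and 4 Oas genes had log2 fold changes below 0 against 5 weeks and were not called. Ifit1, which binds viral RNA that lacks the host cap, ran through 36.7, 68.2 and 239.5 CPM at 5 weeks, 12.2, 30.6 and 322 CPM at 8 weeks, and 15.1, 36.2 and 51.8 CPM in aged uteri. The 3 aged libraries that lay below every 5-week library left the other 3 inside that range, and the log2 fold change was -1.27 ± 0.57 (SE, limma adjusted p 0.114). Ifit3, its partner, ran through 18.1, 43.6 and 228 CPM at 5 weeks, 7.54, 24.2 and 347 CPM at 8 weeks, and 7.72, 49.9 and 63.9 CPM in aged uteri, so that the aged median was the highest of the 3 medians. Ifit3 and Ifit1 had the largest spread between libraries of the same age and set, with residual SDs of 1.31 and 1.16 on the log2 scale. The median residual SD was 0.612 over the members and 0.397 over all genes. Ifit3 shares sequence with Ifit3b, and Oas1a with Oas1g, so reads of these pairs may be split between them.

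Oas3, an enzyme that makes 2'-5' oligoadenylate to activate RNase L, had a log2 fold change of -1.16 ± 0.45 against 5 weeks (SE, limma adjusted p 0.0719) and -0.93 ± 0.45 against 8 weeks (adjusted p 0.163). Its levels were 4.55, 19.7 and 61.3 CPM at 5 weeks, 5.71, 8.90 and 70.3 CPM at 8 weeks, and 4.88, 8.26 and 19.6 CPM in aged uteri. The medians of 8-week and aged libraries nearly coincided, and no aged library lay below every 5-week library. Oas2, of the same family, ran through 27.0, 93.0 and 182 CPM at 5 weeks, 37.8, 65.4 and 208 CPM at 8 weeks, and 40.3, 63.2 and 97.3 CPM in aged uteri. Oasl2, which had the third highest mean CPM of the members, ran through 79.8, 188 and 310.4 CPM at 5 weeks, 73.9, 92.2 and 383 CPM at 8 weeks, and 87.9, 110.2 and 198 CPM in aged uteri. For both Oas2 and Oasl2 every aged value lay within the 5-week range.

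Rsad2 (viperin, which makes a chain-terminating nucleotide) and Mx2 were among the 3 members with the lowest mean CPM. Rsad2 ran through 8.66, 21.04 and 32.9 CPM at 5 weeks, 4.10, 9.34 and 32.3 CPM at 8 weeks, and 3.71, 7.62 and 16.6 CPM in aged uteri. Mx2 ran through 6.44, 13.2 and 24.2 CPM at 5 weeks, 2.54, 7.84 and 30.5 CPM at 8 weeks, and 3.94, 7.31 and 10.1 CPM in aged uteri. For Rsad2 4 of 6 aged libraries, and for Mx2 2 of 6, were below every 5-week library, and neither gene was called (limma adjusted p 0.0750 and 0.196 against 5 weeks). Bst2 (tetherin, which holds budding virions at the cell surface) had the highest level per length, with a mean of 373 CPM per kb of exon, ahead of Lgals3bp with 122 and Ifi27 with 89.9 CPM per kb. Bst2 ran through 284, 328 and 634 CPM at 5 weeks, 269.8, 315 and 584 CPM at 8 weeks, and 133, 293 and 409 CPM in aged uteri, which overlapped.

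Adar, which edits adenosine to inosine in RNA duplexes and so hides them from the sensors, ran through 19.4, 52.6 and 148 CPM at 5 weeks, 21.8, 51.0 and 131 CPM at 8 weeks, and 29.6, 46.9 and 95.7 CPM in aged uteri. These ranges lay inside each other, with a log2 fold change of -0.26 ± 0.27 against 5 weeks (SE, limma adjusted p 0.524). Of its exon length 16.8% is shared with Chrnb2 on the other strand, which a kit that does not keep strand cannot separate. All 16 antiviral effectors, Ifit2, Samhd1 and Rtp4 included, had a value below 0 against 5 weeks, with a median of -0.83 and 3 calls (Mx1, Cmpk2 and Eif2ak2). Against 8 weeks 13 of 16 did, with a median of -0.26 and 1 call (Mx1).

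Among the 4 sensors, Ddx58 (ENSMUSG00000040296), which encodes the RNA sensor RIG-I, fell against 5 weeks. It lies at chr4:40203773-40239828 on the minus strand. It ran through 67.0, 96.1 and 114 CPM at 5 weeks, 44.3, 71.2 and 154 CPM at 8 weeks, and 40.9, 60.7 and 70.4 CPM in aged uteri, and 5 of 6 aged libraries lay below every 5-week library. The log2 fold change was -0.65 ± 0.23 (SE, limma adjusted p 0.0490), with -0.68 in the later and -0.63 in the earlier set. The call held in only 4 of 20 fits that left out a library, with adjusted p from 0.0116 to 0.104. Ifih1 (MDA5, which detects long RNA duplexes) ran through 19.4, 35.4 and 64.8 CPM at 5 weeks, 19.2, 26.7 and 51.6 CPM at 8 weeks, and 18.6, 24.9 and 54.1 CPM in aged uteri, with groups that overlapped and a log2 fold change of -0.32 ± 0.22 (adjusted p 0.306). Zbp1, which binds Z-form nucleic acids and can start cell death, ran through 16.5, 65.1 and 118 CPM at 5 weeks, 22.1, 26.3 and 154 CPM at 8 weeks, and 9.60, 31.8 and 47.2 CPM in aged uteri. Aged values of Zbp1 stayed below the 5-week median in all 6 libraries, with a log2 fold change of -0.91 ± 0.49 (limma adjusted p 0.188). With Dhx58, all 4 sensors had a value below 0 against 5 weeks, with a median of -0.78.

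None of the 4 transcription factors was called. Stat2, a subunit of the ISRE-binding complex, came nearest, at -0.86 ± 0.31 in aged against 5-week uteri (log2, SE; limma adjusted p 0.0527). Stat2 ran through 23.6, 80.7 and 158 CPM at 5 weeks, 31.9, 48.1 and 105.5 CPM at 8 weeks, and 33.8, 36.2 and 75.8 CPM in aged uteri. All 6 aged libraries lay below the 5-week median and none below every 5-week library. Irf9, the DNA-binding subunit of that complex, ran through 54.3, 92.7 and 131 CPM at 5 weeks, 51.7, 79.0 and 137 CPM at 8 weeks, and 69.4, 81.3 and 124 CPM in aged uteri. Irf7, which amplifies type I interferon production, ran through 45.5, 95.9 and 169.6 CPM at 5 weeks, 43.0, 51.6 and 281 CPM at 8 weeks, and 41.5, 96.2 and 161 CPM in aged uteri. Irf1, which interferon gamma induces directly, ran through 56.0, 83.6 and 101 CPM at 5 weeks, 61.0, 72.4 and 115 CPM at 8 weeks, and 49.5, 84.2 and 136 CPM in aged uteri. For Irf9, Irf7 and Irf1 the aged and 5-week ranges overlapped over most of their length, and their log2 fold changes were -0.14 ± 0.19, -0.17 ± 0.42 and 0.02 ± 0.18 in that order (SE, limma adjusted p 0.644, 0.808 and 0.944).

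The 6 interferon-inducible GTPases were not called in either comparison with aged uteri. Against 8 weeks their values lay below 0 in the later and above 0 in the earlier set, a difference between sets that was not called either. Gbp2, which coats and lyses pathogen vacuoles, ran through 44.3, 72.4 and 198 CPM at 5 weeks, 24.3, 69.7 and 209 CPM at 8 weeks, and 34.1, 81.5 and 250.4 CPM in aged uteri. Iigp1, of the immunity-related GTPases, ran through 28.9, 83.0 and 180.2 CPM at 5 weeks, 15.4, 41.4 and 121 CPM at 8 weeks, and 12.0, 36.9 and 194 CPM in aged uteri. For both genes the highest aged library, aged replicate 1, belonged to the earlier set, while the 8-week libraries of that set had the lowest means over the 6 GTPases at that age, 4.73 and 5.01 on the log2(CPM + 1) scale. In a fit with a mean for each age in each set, the log2 fold change of Gbp2 in aged against 8-week uteri was -0.41 in the later set and 2.34 ± 0.67 in the earlier set (SE, limma adjusted p 0.0234). The values of Iigp1 were -0.88 and 2.19, of Gbp7 -0.48 and 1.61, of Igtp -0.46 and 1.36, of Gbp3 -0.88 and 0.88, and of Irgm1 -0.52 and 0.23, for the later and the earlier set. The test of the difference itself, later minus earlier, gave -2.75 ± 0.81 for Gbp2 (adjusted p 0.136), -2.10 ± 0.61 for Gbp7 (adjusted p 0.136) and -3.07 ± 1.07 for Iigp1 (adjusted p 0.200). No member passed it in either comparison, 0.0235% of all genes passed it against 8 weeks and 0 against 5 weeks. An unadjusted p under 0.05 was reached by 7 members against 8 weeks, beside 14.5% of all genes, and by 4 against 5 weeks, beside 8.44%. Gbp genes have near-identical copies, and exons of Igtp overlap those of Irgm2, so these values are uncertain where the counting could split reads.

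In the same fit, with a mean for each age in each set, the medians of the sets over all members lay on opposite sides of 0 against 8 weeks. In the later set 38 of 42 lay below 0, with a median of -0.34, and 1 was called higher (Ifi27), beside 0.962% of all genes, and none lower, beside 1.5%. In the earlier set, with 2 libraries per age, 24 of 42 members lay above 0, with a median of 0.24, and 4 (Ifi27, Gbp2, Gbp7 and Trim21) were called higher, beside 9.12% of all genes, and none lower, beside 8.44%. Against 5 weeks the sets pointed the same way, with 38 of 42 below 0 and a median of -0.58 in the later set and 35 of 42 below 0 and a median of -0.71 in the earlier. In that comparison Ifi27 was called higher in either set, beside 3.24% of all genes in the later and 6.68% in the earlier, and no member was called lower, beside 3.28% in the later and 4.39% in the earlier. The earlier set fitted by itself called 8 members lower against 5 weeks (Isg15, Mx1, Oas1a, Oas2, Stat2, Ifi35, Dhx58 and Eif2ak2), beside 8.55% of all genes. Between the sets themselves, within age groups, 3 members were higher in the later set and 13 lower, beside 20.5% and 38.3% of all genes. Ifit3 (1.66), Ifi27 (0.63) and Bst2 (0.51) were the higher members, and Oas3 (-1.61), Adar (-1.55), Eif2ak2 (-1.48) and Trim25 (-1.47) had the most negative log2 values among the lower.

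**Figure D5:**
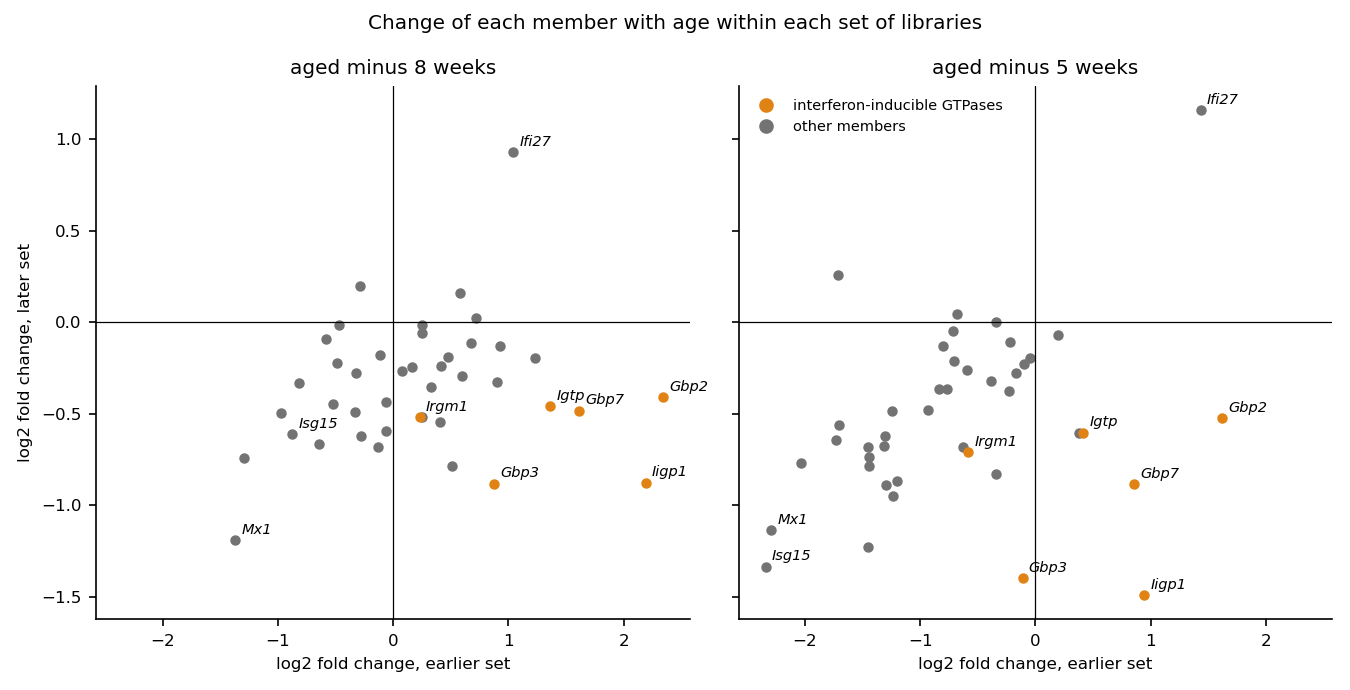
Log2 fold change of each member in the later set (y axis) against that in the earlier set (x axis), for aged minus 8-week uteri on the left and aged minus 5-week uteri on the right, with the GTPases in orange. On the left the GTPases lie right of 0 and below it, at -0.41 in the later and 2.34 in the earlier set for Gbp2, and Ifi27 is at the upper right in both panels.

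Ifi27 (ENSMUSG00000064215) rose with age while the other called members fell. It encodes a small hydrophobic protein of the mitochondrial and nuclear membranes that interferon induces strongly in human cells, and it lies at chr12:103434211-103440239 on the plus strand. Its lowest, median and highest levels were 58.7, 90.5 and 136 CPM at 5 weeks, 70.3, 113 and 151 CPM at 8 weeks, and 150.4, 201 and 268 CPM in aged uteri. All 6 aged libraries lay above every 5-week library and 5 of 6 above every 8-week library. In the sixth, aged replicate 2, Ifi27 was at 150.4 CPM, just under the 151 CPM of 8w replicate 6. Ifi27 was the only member whose aged libraries all lay above the 5-week ones, as did 1.65% of all genes, and 0 members lay wholly below them, as did 1.43% of all genes. The log2 fold change was 1.24 ± 0.15 against 5 weeks (SE, limma adjusted p 1.59e-05, fold 2.37) and 0.97 ± 0.15 against 8 weeks (adjusted p 0.000318, fold 1.96). It was called in each of the 20 fits that left out a library, in both comparisons, and within the later and the earlier set it was 1.16 and 1.44 against 5 weeks and 0.93 and 1.04 against 8 weeks. Its correlation across the 20 libraries with the mean of the other members, after the mean of each age and set was taken out, was -0.265, against 0.382 to 0.980 for the other 41. In 8w replicate 4, where most members were high, Ifi27 was 1.02 times the median of the other 8-week libraries.

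The remaining 4 members of mixed function, Ifi35, Ifi44, Xaf1 and Lgals3bp, had values below 0 in both comparisons and were not called. Lgals3bp, a secreted glycoprotein that binds galectins and had the highest mean CPM of the members, ran through 233, 422 and 487 CPM at 5 weeks, 245, 290.0 and 673 CPM at 8 weeks, and 139, 326 and 373 CPM in aged uteri. The groups overlapped, with a log2 fold change of -0.36 ± 0.25 against 5 weeks (SE, limma adjusted p 0.320).

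A single 8-week library carried the highest levels of many members. In 8w replicate 4, 36 of 42 members were at their highest among the 8-week libraries, as were 8.2% of all genes, and 20 of 42 at their highest among all 20 libraries, as were 2.53% of all genes. Its ratio to the median of the 6 other 8-week libraries had a median of 2.79 over the members and 0.794 over all genes, and was over 2 for 31 of 42 members and for 4.35% of all genes. Ifit3 was 17.5 times, Ifit1 10.6 times, Isg15 7.67 times and Irf7 5.57 times the median of the others, while Adar was 1.24 times and Eif2ak2 1.14 times. Among the 5-week libraries replicate 6 held the highest value of 17 members (7.65% of all genes) and replicate 3 the lowest of 29 (10.6%). Among the aged libraries replicate 1 held the highest of 26 (14.7%) and replicate 7 the lowest of 21 (13.7%). Aged replicate 7 also had the lowest summed CPM of smooth muscle markers in aged uteri, 2679 against a median of 15367 CPM. Its sum of epithelial markers, 5324 CPM, was the highest of the aged libraries. The part of this in its member levels was not tested.

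The RNA of interferon epsilon was looked at beside these libraries, and Ifne was singled out after its values were seen. Ifne had 24.9, 28.7, 1.15, 5.68, 33.6, 40.1 and 23.5 CPM in 5w replicates 1 to 7, and 5.24, 17.8, 5.51, 48.4, 8.50, 1.30 and 14.8 CPM in 8w replicates 1 to 7. In aged replicates 1, 2, 4, 5, 6 and 7 it had 23.4, 2.89, 3.69, 14.1, 6.00 and 9.87 CPM. In each age the library with the most Ifne, 5w replicate 6, 8w replicate 4 and aged replicate 1, was also the library with the highest mean level of the members. At the low end this held for 5w replicate 3, but 8w replicate 6 and aged replicate 2, the lowest in Ifne, ranked 5 of 7 and 5 of 6 in the mean level. Aged replicate 7, the lowest aged library in the mean level, ranked 3 of 6 in Ifne. Replicate 5 of the 5-week libraries ranked 2 of 7 in Ifne and 5 of 7 in the mean level, and replicate 1 ranked 4 and 2. Whether Ifne goes with the level of the members was not tested. Ifne was not called with age, at -0.93 ± 0.70 against 5 weeks (log2, SE; limma adjusted p 0.353) and -0.24 ± 0.70 against 8 weeks (adjusted p 0.852). Ifnb1, Ifnk and Ifng, other interferon genes, were not among the listed genes.

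Markers of cell types were compared as sums of CPM. The 14 listed macrophage and dendritic cell markers had a lowest, median and highest sum of 560, 1107 and 1676 CPM at 5 weeks, 506, 1367 and 3428 CPM at 8 weeks, and 939.5, 1976 and 3026 CPM in aged uteri. In 8w replicate 4 that sum was 1612 CPM, the third of 7, and the 3 plasmacytoid dendritic cell markers other than Bst2 had their lowest 8-week sum there, at 108 CPM. The 8 T and NK cell markers ran through 38.3, 179 and 563 CPM at 5 weeks, 42.2, 166 and 411 CPM at 8 weeks, and 70.2, 97.2 and 281 CPM in aged uteri, with 191 CPM in 8w replicate 4. The 6 plasma cell markers summed to 446, 606 and 871 CPM at 5 weeks, 582, 690 and 948 CPM at 8 weeks, and 1005, 2395 and 7548 CPM in aged uteri, and 4 of the 6 were called higher in aged uteri in both comparisons. The 10 epithelial markers summed to 2273, 3421 and 9124 CPM at 5 weeks, 1812, 2897 and 9874 CPM at 8 weeks, and 1697, 3862 and 5324 CPM in aged uteri. The 4 measured red blood cell markers summed to 29.1, 54.2 and 156 CPM at 5 weeks, 16.1, 37.6 and 63.1 CPM at 8 weeks, and 51.8, 134 and 281 CPM in aged uteri, and all 4 were called higher against 8 weeks and 0 against 5 weeks. Of the macrophage and dendritic cell markers 1 of 14 was called higher against 8 weeks and 4 of 14 against 5 weeks. Of 8 endothelial markers 1 was called higher against 8 weeks and 2 against 5 weeks, and of 8 smooth muscle markers 0 and 2 in the same order. Of 10 endometrial stromal markers 0 were called higher in either comparison, and 1 was called lower against 8 weeks and 2 against 5 weeks. Their median sum was 8443 CPM at 5 weeks, 8391 CPM at 8 weeks and, in aged uteri, 6450 CPM, with ranges that overlapped. Of 10 epithelial markers 1 was called higher in each comparison and 1 lower against 5 weeks. Over all genes 8.64% were called higher and 8.53% lower against 8 weeks, and 12.7% and 9.41% against 5 weeks. The sums pool the 2 sets, which differed in these markers. In later minus earlier libraries the median log2 value was -1.43 over the epithelial markers, with 6 of 10 called lower. It was 1.48 for smooth muscle (6 of 8 called higher) and 1.39 for T and NK cells (6 of 8 called higher). For endometrial stroma it was 0.88 (6 of 10 called higher, 2 lower). Over all genes 20.5% were called higher and 38.3% lower in the later set. The part of any of these cells in the changes of the members was not tested.

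Upstream of the members, 17 of 20 listed genes for interferons, receptors and JAK-STAT signalling were measured. Against 8 weeks 1 was higher (Ifnar2) and 2 were lower (Socs1 and Ptpn2), and against 5 weeks 3 were higher (Ifnar2, Ifngr1 and Ptpn6) and 1 lower (Socs1), beside the shares of all genes given above. Ifnar2, a chain of the type I receptor, had a lowest, median and highest level of 30.05, 43.2 and 50.1 CPM at 5 weeks, 28.5, 45.4 and 65.3 CPM at 8 weeks, and 44.6, 63.8 and 68.2 CPM in aged uteri. It rose by 0.58 ± 0.15 on the log2 scale against 5 weeks (SE, limma adjusted p 0.00902). Socs1, which interferon induces and which inhibits JAK kinases, ran through 4.42, 8.48 and 29.97 CPM at 5 weeks, 5.01, 9.24 and 25.9 CPM at 8 weeks, and 4.30, 5.02 and 7.28 CPM in aged uteri. Both comparisons called Socs1, at -0.83 ± 0.22 against 5 weeks (adjusted p 0.0129) and -0.89 ± 0.22 against 8 weeks (adjusted p 0.0105), with ranges that overlapped. Ptpn6, a phosphatase of blood cells, rose by 0.58 ± 0.15 against 5 weeks (adjusted p 0.0113), and Ptpn2, a phosphatase that acts on JAK1, had a log2 fold change of -0.49 ± 0.13 against 8 weeks (adjusted p 0.0156).

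Of 25 genes of nucleic acid sensing, 21 were measured. Against 5 weeks 5 were higher and 5 lower, beside 12.7% and 9.41% of all genes. Against 8 weeks 1 was higher and 3 were lower, beside 8.64% and 8.53% of all genes. Cgas, the DNA sensor, fell against both ages, by 0.80 ± 0.28 on the log2 scale against 5 weeks (SE, limma adjusted p 0.0423) and by 1.19 ± 0.28 against 8 weeks (adjusted p 0.00646), with medians of 6.40 CPM at 5 weeks, 9.56 CPM at 8 weeks and, in aged uteri, 3.06 CPM. Tmem173, which encodes its adaptor STING and was singled out after its values were seen, had medians of 256 CPM at 5 weeks, 158.5 CPM at 8 weeks and, in aged uteri, 81.4 CPM. Its highest aged value, 123 CPM, lay within the 5-week range of 55.7 to 271 CPM, and its log2 fold change was -1.14 ± 0.35 against 5 weeks (adjusted p 0.0247). Irf8, a factor of macrophages and dendritic cells, rose by 0.91 ± 0.24 against 5 weeks (adjusted p 0.0116), and Ikbke, a kinase of interferon regulatory factors, by 0.49 ± 0.13 against 5 weeks (adjusted p 0.0118) and 0.43 ± 0.13 against 8 weeks (adjusted p 0.0273).

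Of 90 other interferon-induced genes 82 were measured. Against 5 weeks 7 were higher and 6 lower, beside 12.7% and 9.41% of all genes, with a median of -0.04 on the log2 scale. Against 8 weeks 4 were higher and 4 lower, beside 8.64% and 8.53% of all genes, with a median of 0.07. Pnpt1, a mitochondrial RNA exonuclease, had the smallest adjusted p of the lower genes, at -0.96 ± 0.18 against 5 weeks (SE, limma adjusted p 0.00106) and -1.0 ± 0.18 against 8 weeks (adjusted p 0.00108). Slfn9, of the schlafen family, had log2 values of -1.83 ± 0.40 and -1.97 ± 0.40 in the same order, with medians of 27.6 CPM at 5 weeks, 27.6 CPM at 8 weeks and, in aged uteri, 6.29 CPM. Plscr1, a phospholipid scramblase, had -1.21 ± 0.26 and Parp12, an ADP-ribosyl transferase, -0.69 ± 0.18 against 5 weeks (adjusted p 0.00334 and 0.00872). Gbp4 had -1.35 ± 0.43 against 8 weeks (adjusted p 0.0359). Among the higher genes were Tmem140, a membrane protein, at 0.88 ± 0.17 against 5 weeks and 0.95 ± 0.17 against 8 weeks, and Cd274, which encodes the checkpoint ligand PD-L1, at 1.15 ± 0.28 against 8 weeks (adjusted p 0.00918). Tapbp, which loads peptides onto MHC class I, had 0.56 ± 0.16 against 8 weeks (adjusted p 0.0229).

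Across the 20 libraries, after the mean of each age and set was taken out, Parp9 (r 0.980), Dhx58 (0.966) and Usp18 (0.958) followed the mean of the other members most closely. The libraries share sets and depth, and 8w replicate 4 lies far from the rest in most members, so these r values are descriptions. By the same measure the 10 genes outside the list most like the members were Rasa4 (0.951), Sp100 (0.949), Ifit3b (0.934), Capg (0.931), Aldoa (0.929), Gm12250 (0.928), Phf11d (0.924), Ddx60 (0.921), Oxa1l (0.919) and Uba7 (0.916). Each of them was at its highest 8-week level in replicate 4, for example Rasa4 at 435 CPM and Aldoa at 2170.2 CPM, and none was called between aged and younger uteri.

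The promoter letters shown above were set against the changes. Members with the ISRE core in the window had a median log2 fold change of -0.66 in aged against 5-week uteri (16 of 17 below 0, 3 called lower), and the others with a promoter entry -0.32 (13 of 14 below 0, 1 called lower). Against 8 weeks the medians were -0.28 (11 of 17 below 0) and -0.08 (9 of 14 below 0). The ratio of 8w replicate 4 to the other 8-week libraries had a median of 2.46 with the core and 2.17 without. Against 5 weeks Isg15, with 3 overlapping copies, had -1.64 ± 0.47, and Gbp2, with 1 copy, had 0.17 ± 0.46. These were the lowest and the highest value of the members with the core. Rsad2, also with 1 copy, had -1.02 ± 0.40, and Ifit3, with 2 copies, had -0.66 ± 0.63. Whether the number of copies goes with the change was not tested.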

How the data were processed

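Whole-uterus RNA of 5-week, 8-week and aged mice was sequenced from unstranded NEBNext Ultra libraries, read as 60 bp single or 150 bp paired ends, per the labels' protocols. The values the authors deposited are CPM, scaled to 1000000 over the listed genes in a library. Named in the submitters' processing notes are GRCm38 and the tools edgeR, featureCounts, STAR and fastp, without versions. Values were found in 20 of 21 files, and 1 had only gene symbols. The header of 15 of the 20 columns names another sample than its file was attached to. Columns were used as their headers name them, and aged replicate 3, which has no column, was not analysed here. Columns not used numbered 0. Each value was a whole multiple of 1 read within 1e-06, but no count test was run. By the reads inferred in this way, every listed gene had at least 10 in every library.

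From these CPM, log2(CPM + 1) was fitted with limma 3.58.1 in R 4.3.3 (trended variance, 1 mean per age, set as covariate, all 20 libraries), with Benjamini-Hochberg adjustment over 12791 genes and a threshold of 0.05. Fold changes are on the log2(CPM + 1) scale, which understates changes of low genes. The fit was tested on simulated data. The difference between sets was tested with a mean per age and set. Python 3.11.15, pandas 2.3.3, numpy 2.4.6, scipy 1.17.1 and matplotlib 3.10.9 were used. Coordinates and exon lengths are from GENCODE release 21 on GRCm38, which holds 12767 of the gene IDs. Alternatives were other pseudocounts, filters, scalings, weights, set treatments, replicate blocks, columns attached by file and leaving out each library.

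The members and gene lists were chosen with earlier results of these data known. Values in full are given for called members, the 3 largest changes of each comparison, the 5 highest and 3 lowest by mean CPM, the 5 with the largest residual SD and 9 members chosen for their role. Outside the list, called pathway genes are named up to 10 per comparison by adjusted p, with the 10 genes most like the members. A gene that the rule also names is not reported here.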

Additional observations from a re-analysis of the deposited data

Results flagged for a closer look

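Of 129 groups of values examined, 11 had a highest or lowest library that stood apart from the rest of its group by Dixon's criterion at 95%, where chance alone gives about 1 in 20. In 8w replicate 4 the mean level of the members stood above the other 8-week libraries, at 6.91 on the log2(CPM + 1) scale. In the same library 8 members stood apart, with Isg15 at 205 CPM, Oas1a at 189 CPM, Irf7 at 281 CPM, Usp18 at 127 CPM, Ifi35 at 96.0 CPM, Bst2 at 584 CPM, Xaf1 at 124 CPM and Zbp1 at 154 CPM. Among the 5-week libraries, Mx1 in replicate 3 stood below the others, at 4.61 CPM, and Bst2 in replicate 6 stood above them, at 634 CPM.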

How the results depend on the processing

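Ifi27 was called higher in aged uteri in both comparisons under every setting run, and no called member reversed its direction. Library weights gave aged replicate 4 a weight of 7.84 and the other aged libraries 0.259 to 1.18. With these weights, 2 members were higher and 4392 of all genes called in aged against 8-week uteri, where the members' median was 0.18. Against 5-week uteri 20 members were lower, beside 17.6% of all genes, and 5301 genes were called. Without the set term, 0 members were lower and 969 genes called against 8 weeks, and 2 members were lower and 1380 genes called against 5 weeks. Over all genes 3.67% and 4.42% were called lower there, in the same order. In the earlier set alone, 4 members were higher and 3613 genes called against 8 weeks, and 0 members were lower, beside 13.2% of all genes. Against 5 weeks 8 members were lower in that set, beside 8.55% of all genes. In the later set alone, 0 members were lower in either comparison, with 183 genes called against 8 weeks and 523 against 5 weeks. Over all genes 1.03% and 2.21% were called lower in that set, in the same order. Median centring left 0 members lower against 8 weeks, beside 10.6% of all genes. With columns attached by file, 565 genes were called against 8 weeks. Without the 2 columns in files of another age, an alternative chosen after seeing the data, 10 members were lower against 5 weeks, beside 9.39% of all genes. The cause of these shifts was not tested. With the replicate number as a block, 2 members were lower and 1637 genes called against 8 weeks, and 6 members were lower and 2413 genes called against 5 weeks. Over all genes 6.53% and 8.4% were called lower with that block, in the same order. Of 19 same-number pairs, 10 had correlated deviations over 0.1 (r from -0.505 to 0.279). Pairs of different number included r 0.794 (5w replicate 3 with 8w replicate 6) and -0.514 (5w replicate 5 with aged replicate 4). In the earlier set, with 2 libraries per age, the deviations mirror each other. This check therefore cannot decide whether the numbers pair the libraries.

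With each library left out in turn, members lower in aged uteri numbered 0 to 2 against 8 weeks and 4 to 13 against 5 weeks, and 1 was higher throughout. Over all genes 5.06% to 10.8% were called lower against 8 weeks and 6.56% to 10.4% against 5 weeks in these fits. All genes called numbered 1309 to 2617 against 8 weeks, where all libraries gave 2196, and 1982 to 3294 against 5 weeks, where all gave 2825. The lowest counts against 8 weeks came without aged replicate 1 (1309), 8w replicate 2 (1358) and 8w replicate 1 (1454). Between 8-week and 5-week uteri 0 were called throughout. The share of member promoters with the longer ISRE form was 29.0%. TMM scaling, edgeR and DESeq2 on recovered reads were planned but not run. Genes under 10 inferred reads in any library are not listed, which limits what low members can show.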
